A study of Mus musculus with 6 samples.

Results

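The data described here are the levels of 10 genes of calcium handling and excitation-contraction coupling in C2C12 cells, myoblasts of an established mouse line able to fuse into contractile myotubes. The genes are Ryr1, Cacna1s, Cacnb1, Atp2a1, Atp2a2, Casq1, Casq2, Stac3, Jph2 and Trdn, taken by symbol from the 52740 gene rows of the deposited count table. Each symbol matched 1 row. Of the 10, 8 passed the filter on low counts, which left 15022 genes for testing, and Cacna1s and Casq1 did not. RNA came from cells kept in medium with 10% fetal bovine serum and transfected with either a random control siRNA (siCTRL, 3 libraries) or an siRNA against Cox7a2l (siCOX7A2L, 3 libraries). Cox7a2l encodes a protein that acts in the assembly of some supercomplexes of the respiratory chain. Libraries were made from 2 µg of total RNA after removal of ribosomal RNA, with strand marking. Both groups are the same cell line and passed through the same transfection. The labels number the replicates 1 to 3 in each group without saying that they were separate cultures, so the tests measure the spread between these libraries, which may be technical. The labels describe growth medium and give no switch to a differentiation medium. The series' title places the comparison in myoblast differentiation, and the comparison asks how these genes differ when Cox7a2l is reduced.

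In skeletal muscle an action potential travels along the T-tubules, where the L-type channel Cacna1s acts as the voltage sensor and opens the ryanodine receptor Ryr1 of the sarcoplasmic reticulum by direct contact. Calcium released through Ryr1 starts contraction, and the SERCA pumps, products of Atp2a1 and Atp2a2, return it to the reticulum, where calsequestrins bind it. Stac3, the channel subunit Cacnb1, junctophilins and triadin hold this machinery together at the junction of the 2 membranes. Myoblasts carry little of it, and most of it appears as they become myotubes.

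Total estimated counts were between 9890218 and 17077826 per library, with the smallest in siCOX7A2L replicate 3. Cox7a2l itself had 58.0, 59.5 and 58.9 CPM (counts relative to library size, which was scaled with TMM factors) in siCTRL replicates 1, 2 and 3 and 6.72, 5.90 and 3.59 CPM in siCOX7A2L replicates 1, 2 and 3 (log2 fold change -3.44, edgeR adjusted p = 1.9e-05). Replicate 3 of both groups stood apart from the other 4 libraries on the axis of largest variance, which held 61.2% of it. Muscle genes were part of that difference. Myog, which drives the first steps of differentiation, was at 2.90, 3.78 and 61.1 CPM in siCTRL and 9.57, 1.33 and 159 CPM in siCOX7A2L, in the order of replicates 1, 2 and 3. Ckm, the muscle creatine kinase of myotubes, had 1 to 4 counts in each library of replicates 1 and 2, and 27 and 42 counts in replicate 3 of siCTRL and siCOX7A2L. Myod1, a defining factor of myoblasts, was at 118 to 161 CPM in the 6 libraries. Pax7, another of the myoblast and muscle markers, was at 49.5 and 66.4 CPM in replicate 3 of siCTRL and siCOX7A2L. Elsewhere it was at 24.1 to 26.3 CPM. Myf5 was at 56.6, 58.8 and 33.0 CPM in siCTRL and 79.6, 44.9 and 58.4 CPM in siCOX7A2L, in replicate order. Of 4 endothelial, 4 macrophage and blood, 4 adipocyte and 4 cardiac markers, each list summed to at most 3.30 CPM in any library, and Adgre1, Cidec and Nppa were at 0 throughout. The 5 fibroblast markers summed to 291, 295 and 775 CPM in siCTRL and 224, 357 and 840 CPM in siCOX7A2L, most of it Col1a1, which was 751 and 783 CPM in the replicate 3 libraries and at most 331 CPM elsewhere. Pdgfra was lowest in replicate 3 of both groups (11.4 and 10.2 CPM against 14.4 to 21.6 CPM). Of the 3 fibroblast markers that could be tested, Dcn rose (log2 fold change 1.72, edgeR adjusted p = 0.0419, and 0.209 without replicate 3), while Col1a1 had -0.047 (adjusted p = 0.901) and Pdgfra 0.15 (0.729), both with a sign that turned under some alternatives. The part of differentiation and of fibroblast genes in the values below was not tested. Fewer cells that express a gene and less RNA per cell cannot be told apart in these bulk libraries. Fold changes come from an edgeR quasi-likelihood fit blocked on replicate number, a block set when the 10 genes were chosen. Each siCOX7A2L library is thus set against the siCTRL library of its number.

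None of the 8 tested genes passed an adjusted p of 0.05 in that fit (0 of 8, while 0.726% of all tested genes passed, 0.433% higher and 0.293% lower). At an unadjusted p under 0.05 there were 5 of the 8, with Ryr1, Atp2a1, Stac3 and Trdn higher and Atp2a2 lower in siCOX7A2L, against 17.7% of all tested genes (8.74% higher and 8.97% lower). The same 4 genes were higher in all 3 pairs of equal replicate number, which 21.2% of all tested genes were. In the deposited TPM, of these 4, Ryr1 alone was higher in all 3 pairs. Atp2a1 and Stac3 were lower in pair 3 (8.64 and 7.69 TPM, and 13.6 and 12.9 TPM, in siCTRL and siCOX7A2L) and Trdn in pair 2 (0.341 and 0.335 TPM). In replicate 3 a single gene row without a symbol took 36.9% of the TPM in siCTRL and 53.6% in siCOX7A2L. By construction this lowers the TPM of every other gene in siCOX7A2L replicate 3. In CPM, Atp2a1 and Stac3 were higher in pair 3, by 0.39 and 0.95 on the log2 scale. On log2 TPM plus 0.5 the fold changes were 0.53 for Ryr1, 0.31 for Atp2a1, 0.40 for Stac3, 0.67 for Trdn and -0.55 for Atp2a2, where the median of all genes was -0.21. Atp2a2 was lower in all 3 pairs, as 20.8% of all genes were. The median log2 fold change of the 8 genes was 0.50, against 0.0077 for all tested genes. In none of the 8 did the siCOX7A2L libraries lie wholly above or below the siCTRL libraries, while 15.6% of all genes separated in this way. DESeq2 with the replicate block called 1 of the 8, Ryr1, and gave no adjusted p for Casq2 and Trdn. It called 4.11% of the 11983 genes with an adjusted p. With a pseudocount of 0.5 or 0.1, limma on log2 TPM called 0 of the 8 (0.0932% and 0.0599% of all genes called). Without the block 0 of the 8 passed, as did 0.0133% of all genes, and 0 of the 8 had an unadjusted p under 0.05 (6.35% of all genes). With the block reduced to a term that marks replicate 3 the count was 0 of 8 (1.31% of all genes), and library size scaling 0 of 8 (0.386%).

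**Figure D1:**
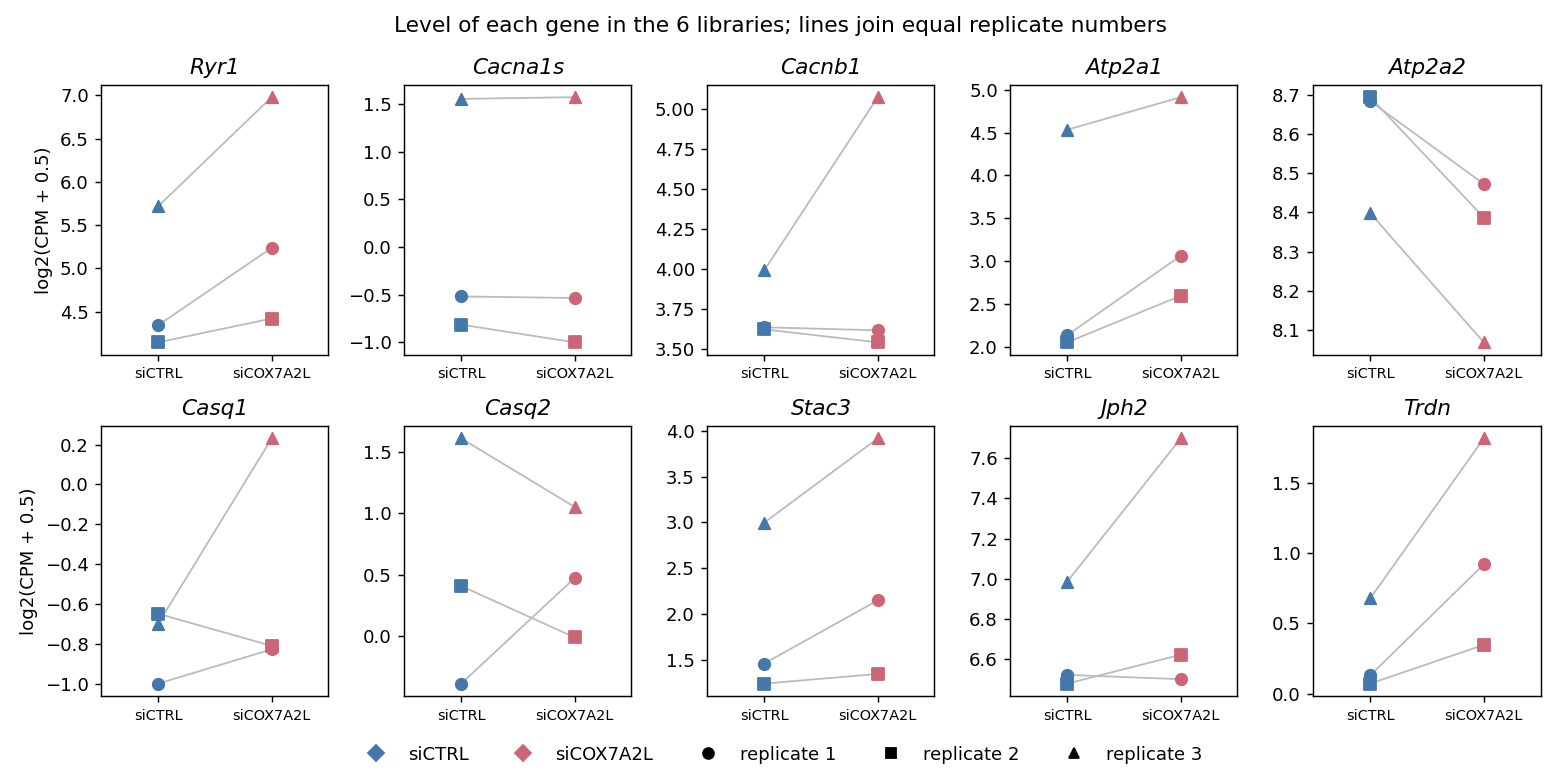
Level of each of the 10 genes in the 6 libraries, as log2(CPM + 0.5), with siCTRL on the left and siCOX7A2L on the right of each panel. Symbols mark the replicate number, and lines join equal numbers. Replicate 3 is highest in both groups for 8 of the 10 genes, and the lines of Ryr1, Atp2a1, Stac3 and Trdn all slope upward. The vertical scale differs between panels.

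Levels can be set against each other only per transcript length, in the deposited TPM. Atp2a2 was the most abundant of the 10 in every library (34.2 to 81.1 TPM) and Jph2 was next in every library (18.0 to 27.6 TPM). Cacnb1 (median 5.77 TPM), Stac3 (3.98), Ryr1 (2.46) and Atp2a1 (1.73) formed the middle. The ranges of these 4 genes overlapped, and their order changed in replicate 3 of siCTRL and of siCOX7A2L. Casq2 (median 0.464 TPM) and Trdn (0.389) had lower medians and overlapped each other. Casq1 (0.0662) and Cacna1s (0.0303) had the lowest medians and overlapped too, and each was listed at 0 in 1 library. In replicates 1 and 2 of both groups the voltage sensor Cacna1s and the fast-fibre calsequestrin Casq1 had at most 3 counts, in libraries where the pump Atp2a2 and the junctophilin Jph2 led the 10 genes.

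The sequence upstream of the start is shown for 3 of the genes, chosen by their levels and not by a passed test. Ryr1 and Atp2a1 were higher in each pair and highest in replicate 3, and Cacna1s, the partner of Ryr1, was almost absent outside replicate 3. Each run holds the 250 bases before the RefSeq start on GRCm38.p6, a build other than the mm39 named for the deposited files, read 5′ to 3′ on the strand of the gene. Capitals mark E-boxes, the motif CANNTG bound by MyoD and myogenin, which reads the same on both strands.
Ryr1, chr7:29125152-29125401, minus strand: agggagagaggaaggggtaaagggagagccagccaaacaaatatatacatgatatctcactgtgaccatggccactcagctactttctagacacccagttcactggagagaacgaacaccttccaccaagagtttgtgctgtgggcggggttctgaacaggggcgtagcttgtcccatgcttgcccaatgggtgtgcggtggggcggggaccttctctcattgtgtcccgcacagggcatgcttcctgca
Atp2a1, chr7:126463074-126463323, minus strand: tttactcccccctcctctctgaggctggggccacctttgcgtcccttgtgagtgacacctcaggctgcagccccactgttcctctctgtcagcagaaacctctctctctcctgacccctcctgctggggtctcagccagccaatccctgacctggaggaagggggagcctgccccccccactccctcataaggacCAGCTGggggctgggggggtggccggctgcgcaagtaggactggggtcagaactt
Cacna1s, chr1:136052561-136052810, plus strand: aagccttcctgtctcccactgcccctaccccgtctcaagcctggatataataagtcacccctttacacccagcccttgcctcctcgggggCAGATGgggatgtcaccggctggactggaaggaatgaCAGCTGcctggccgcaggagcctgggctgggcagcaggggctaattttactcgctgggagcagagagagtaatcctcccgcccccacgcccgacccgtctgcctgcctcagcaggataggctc
The window of Ryr1 held 0 E-boxes, that of Atp2a1 held 1 and that of Cacna1s held 2. At least 1 E-box occurred in 66.2% of the 32851 promoter windows of this length, so a match is common. The form CAGCTG, contained in CANNTG, stood in the windows of Atp2a1, 55 bases before the start, and of Cacna1s, as in 13% of all windows. Of the 10 genes, 7 had an entry in this table, and Atp2a2, Stac3 and Trdn had none. CAGCTG was also present in the windows of Casq1 and Jph2, and the MEF2 consensus site was in none of the windows of the 7 genes (0.508% of all windows).

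Ryr1 (ENSMUSG00000030592.19), the calcium release channel of the reticulum, had 19.8, 17.2 and 52.2 CPM in siCTRL replicates 1, 2 and 3. It had 37.3, 20.9 and 126 CPM in siCOX7A2L replicates 1, 2 and 3. Each siCOX7A2L library was above the siCTRL library of its number, although siCTRL replicate 3 was above siCOX7A2L replicates 1 and 2. The group means were 29.7 ± 19.5 CPM in siCTRL and 61.3 ± 56.3 CPM in siCOX7A2L (SD, n = 3 each). The fitted level in siCOX7A2L was 1.79 times that in siCTRL (log2 fold change 0.84, standard error 0.18, 95% interval 0.44 to 1.25, edgeR adjusted p = 0.0611). The pairs differed by 0.91, 0.28 and 1.27 on the log2 scale. Ryr1 stood closest to the threshold of the 8 genes. It passed when replicate 1 was left out (edgeR adjusted p = 0.0372, 2.45% of all genes called) or replicate 2 (6.4e-06, 7.87% called), and did not when replicate 3 was (0.174, log2 fold change 0.61). It also passed without the filter on low counts (1.7e-05, 4.7% called). Yet without replicate 1 the effect was smaller (0.79) and its standard error larger (0.24) than in the main fit. The unadjusted edgeR p was still smaller, at 0.00079 against 0.00086. Without the filter an effect of 0.83 with an error of 0.16 had 8.7e-08. Without replicate 2 an effect of 1.09 with an error of 0.20 had an unadjusted edgeR p of 4.4e-08. The p-values of these fits are thus not on the scale of the main fit, and passing there cannot be read as stronger evidence. Ryr1 was far from the threshold without the block (edgeR adjusted p = 0.855, log2 fold change 1.04), where the gap between replicate 3 and the others counts as error. In the authors' deposited table Ryr1 had a log2 fold change of 0.86 and an adjusted p of 0.00712. That table calls 6.34% of its genes with an adjusted p, and its log2 values were matched to within 1.3e-09 by a DESeq2 model with a term for replicate 3.

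Cacna1s (ENSMUSG00000026407.18), the voltage-sensing pore subunit that gates Ryr1, was barely detected. It had 3, 1 and 42 counts in siCTRL replicates 1, 2 and 3, and 3, 0 and 22 counts in siCOX7A2L. The 0 in siCOX7A2L replicate 2 allows up to 0.211 CPM, from 3 counts. In replicate 3 the levels were 2.43 CPM in siCTRL and 2.47 CPM in siCOX7A2L. The gene was thus found mainly in the replicate 3 libraries, at nearly the same level in both groups. In the fit without a filter on low counts its log2 fold change was -0.16 (standard error 0.67, edgeR adjusted p = 0.957).

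Stac3 (ENSMUSG00000040287.10), an adaptor that couples the voltage sensor to the release channel, had 2.24, 1.86 and 7.48 CPM in siCTRL replicates 1, 2 and 3. In siCOX7A2L it had 3.93, 2.04 and 14.6 CPM. It was higher in each pair, least so in replicate 2, where the counts were 27 and 29. The log2 fold change was 0.69 (standard error 0.26, 95% interval 0.12 to 1.26, edgeR adjusted p = 0.2). The direction was positive under all 10 alternative analyses. Stac2, a paralog, was at 28.1 to 44.0 TPM, above Stac3 in each library, with a log2 fold change of -0.062 (edgeR adjusted p = 0.831).

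Cacnb1 (ENSMUSG00000020882.18), the beta subunit of the same channel, had 11.9, 11.8 and 15.4 CPM in siCTRL and 11.8, 11.2 and 33.1 CPM in siCOX7A2L, in replicate order. Only siCOX7A2L replicate 3 stood out, and the other 5 libraries lay between 11.2 and 15.4 CPM. The log2 fold change of 0.35 (standard error 0.23, edgeR adjusted p = 0.476) came from the replicate 3 pair, which gave 1.10, against -0.019 and -0.083 in pairs 1 and 2. Without replicate 3 it was -0.054. Cacnb3, another beta subunit gene, was more abundant than Cacnb1 per length in each library (19.8 to 44.0 TPM against 4.98 to 8.41 TPM) and had a log2 fold change of -0.075 (edgeR adjusted p = 0.835), which was positive without replicate 1 and without replicate 3. Cacnb2, the beta subunit gene best known from heart, had 5.28, 5.78 and 10.0 CPM in siCTRL and 3.55, 4.92 and 3.14 CPM in siCOX7A2L. Its siCOX7A2L libraries all lay below its siCTRL libraries, as did those of 7.62% of all tested genes, and its log2 fold change was -0.80 (edgeR adjusted p = 0.19).

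The release channel has a paralog in these cells. Ryr3, a ryanodine receptor found in developing muscle, had 21.9, 24.5 and 47.9 CPM in siCTRL and 32.0, 36.4 and 57.4 CPM in siCOX7A2L. It was higher in each pair (log2 fold change 0.46, edgeR adjusted p = 0.132). Ryr1 made up 34.6%, 22.2% and 37.2% of the summed TPM of Ryr1 and Ryr3 in siCTRL and 39.7%, 27.2% and 56.5% in siCOX7A2L. The share was higher in each pair, by 5.09, 5.04 and 19.3 percentage points, and the group means of 31.3 ± 8.02% and 41.1 ± 14.7% (SD, n = 3 each) gave an exact two-sided permutation p of 0.4 (adjusted over 4 shares p = 0.667). Taken from estimated counts the share differed by -4.78 points in pair 2. This exact test takes no account of the pairs, so the gap of replicate 3 counts as spread, and with 3 libraries against 3 the smallest p it can give is 0.1. Ryr2, the cardiac receptor, had 1 to 4 counts per library.

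The SERCA genes had fold changes of opposite sign. Atp2a1 (ENSMUSG00000030730.13), the pump of fast muscle fibres, had 3.89, 3.65 and 22.7 CPM in siCTRL replicates 1, 2 and 3. In siCOX7A2L it had 7.86, 5.55 and 29.6 CPM. It was higher in each pair, by 0.99, 0.59 and 0.39 on the log2 scale, with replicate 3 of both groups far above the rest. The fitted level was 1.56 times that in siCTRL (log2 fold change 0.64, standard error 0.19, 95% interval 0.21 to 1.07, edgeR adjusted p = 0.13). Unlike that of Cacnb1, its fold change did not rest on replicate 3, and was 0.81 when that pair was left out (edgeR adjusted p = 0.172). Of its 3477 annotated exon bases, 763 overlap Rabep2 on the opposite strand. Rabep2 had a log2 fold change of 0.35 (edgeR adjusted p = 0.243), slightly negative on TPM, and since the use of strand in counting is not given in the sources used here, reads of that stretch cannot be told apart for certain.

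Atp2a2 (ENSMUSG00000029467.16), the pump of slow muscle, heart and, in another isoform, most other cells, had 411, 414 and 337 CPM in siCTRL replicates 1, 2 and 3. In siCOX7A2L it had 355, 334 and 268 CPM. It was lower in each pair, by close amounts, with -0.21, -0.31 and -0.33 on the log2 scale. It was also the sole gene of the 10 with its lowest level in replicate 3 of both groups. The fitted level was 0.822 times that in siCTRL (log2 fold change -0.28, standard error 0.11, 95% interval -0.54 to -0.03, edgeR adjusted p = 0.233), and the direction was the same under all 10 alternatives. In the authors' deposited table the adjusted p of Atp2a2 was 0.0586 and that of Atp2a1 0.0892. Atp2a1 made up 1.40%, 1.10% and 11.1% of the summed TPM of the 2 genes in siCTRL and 2.89%, 2.28% and 18.4% in siCOX7A2L. The share was higher in each pair, by 1.49, 1.18 and 7.26 points. The group means were 4.53 ± 5.69% and 7.84 ± 9.11% (SD, n = 3 each), with the replicate 3 libraries far above the others (exact two-sided permutation p = 0.5, adjusted over 4 shares p = 0.667). Atp2a3, the third SERCA gene, was listed at 0.0843 to 0.569 TPM.

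**Figure D2:**
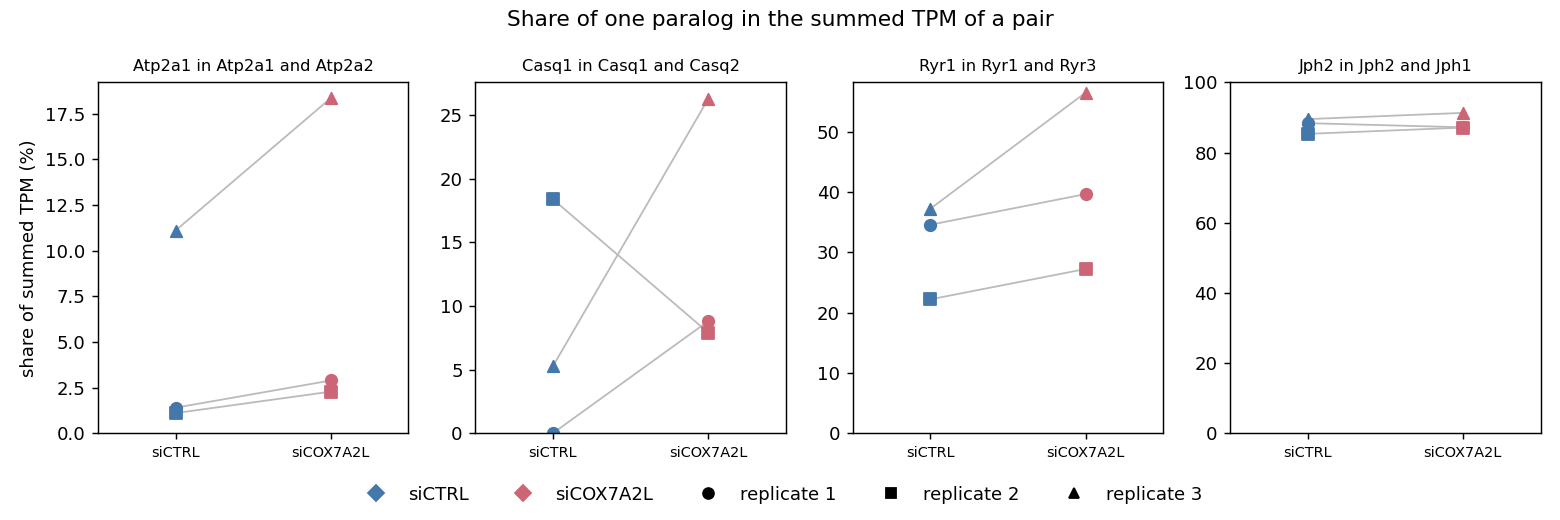
Share of one gene in the summed TPM of a pair of related genes, in percent, for each of the 6 libraries, with lines joining equal replicate numbers. The Atp2a1 share and the Ryr1 share were higher in siCOX7A2L in all 3 pairs, the Jph2 share stayed between 85.3% and 91.3%, and the Casq1 share rests on few counts.

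Among the proteins of the store, Casq1 (ENSMUSG00000007122.12), the main calcium buffer of fast fibres, was close to 0. It had 0, 2 and 2 counts in siCTRL and 1, 1 and 6 counts in siCOX7A2L, too few to test. The 0 in siCTRL replicate 1 allows up to 0.198 CPM. Of the 1951 annotated exon bases of Casq1, 156 overlap Gm17224 on the opposite strand. Gm17224 had 0, 0 and 12 counts in siCTRL and 2, 1 and 7 counts in siCOX7A2L. With the use of strand in counting not given, reads of that stretch cannot be told apart for certain. Casq2 (ENSMUSG00000027861.14), the buffer of slow fibres and heart, had 0.264, 0.826 and 2.55 CPM in siCTRL and 0.887, 0.492 and 1.57 CPM in siCOX7A2L. The groups overlapped, the pairs went in both directions, and the interval was wide (log2 fold change -0.081, standard error 0.54, 95% interval -1.27 to 1.10, edgeR adjusted p = 0.959). With 4 to 44 counts per library, a change within this interval was not detectable, and the sign of the fold change depended on the analysis. The Casq1 share of the summed TPM of both was 0%, 18.4% and 5.26% in siCTRL and 8.81%, 7.91% and 26.3% in siCOX7A2L (exact two-sided permutation p = 0.5), from these few counts.

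Trdn (ENSMUSG00000019787.10) encodes triadin, which anchors calsequestrin at the release channel. It had 0.594, 0.551 and 1.10 CPM in siCTRL replicates 1, 2 and 3 and 1.39, 0.772 and 3.03 CPM in siCOX7A2L. It was higher in each pair, and the groups overlapped only through siCTRL replicate 3 and siCOX7A2L replicate 2. Its fitted fold was the largest of the 8, at 2.17 times the siCTRL level (log2 fold change 1.12, 95% interval 0.18 to 2.06), and the least precise but for Casq2 (standard error 0.42, edgeR adjusted p = 0.204). It rested on 8 to 27 counts per library, and neither DESeq2 with the block nor the authors' deposited table gave Trdn an adjusted p. Asph, whose locus encodes junctin, a relative of triadin, along with an enzyme, had a log2 fold change of -0.14 (edgeR adjusted p = 0.622).

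Jph2 (ENSMUSG00000017817.12) encodes a junctophilin, which ties the reticulum to the surface membrane and the T-tubule. It had 91.5, 88.8 and 126 CPM in siCTRL and 90.1, 98.1 and 207 CPM in siCOX7A2L. Replicates 1 and 2 were alike in both groups, and the replicate 3 libraries were higher. The log2 fold change of 0.28 (standard error 0.15, 95% interval -0.05 to 0.61, edgeR adjusted p = 0.364) came mostly from the replicate 3 pair, and was 0.059 without it. On TPM, with a pseudocount of 0.5, it was 0.0040. In TPM a single gene row without a symbol took 36.9% to 46.3% of the total in 5 libraries and 53.6% in siCOX7A2L replicate 3, which by construction lowers the TPM of every other gene there. Jph1, the other muscle junctophilin, had a log2 fold change of 0.083 (edgeR adjusted p = 0.836), negative on TPM and without replicate 3, and Jph2 held 85.3% to 91.3% of the summed TPM of both in the 6 libraries.

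**Figure D3:**
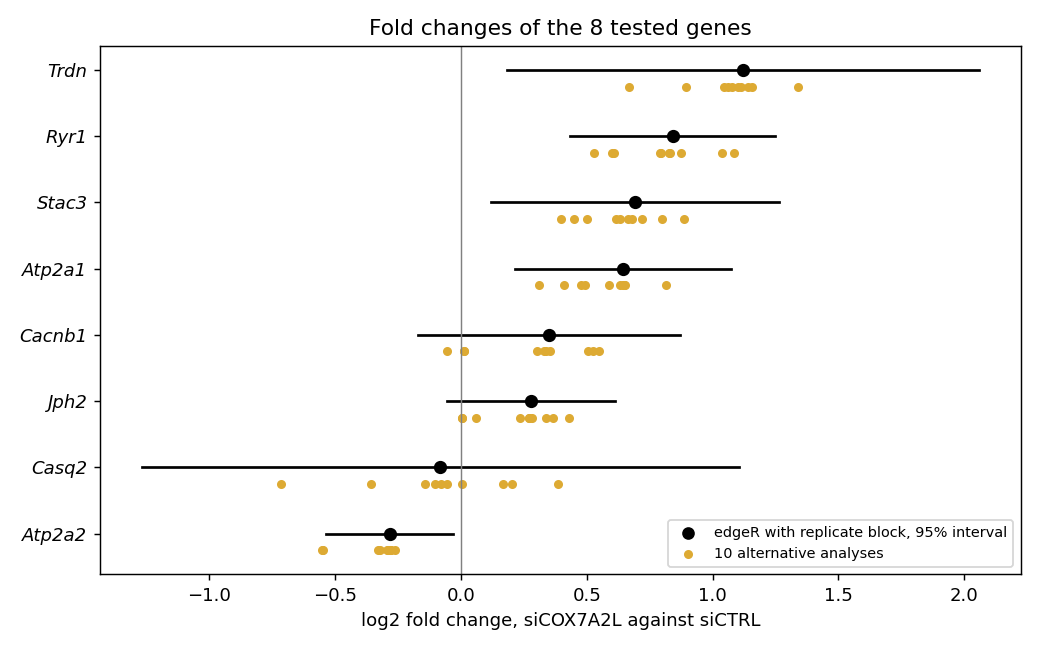
Log2 fold change of siCOX7A2L against siCTRL for the 8 tested genes. Black points and bars give the edgeR fit with the replicate block and its 95% interval, and yellow points the 10 alternative analyses of each gene. The intervals of Trdn, Ryr1, Stac3 and Atp2a1 lie above 0 and that of Atp2a2 below 0 before adjustment over all genes, and the alternatives of Cacnb1 and Casq2 fall on both sides of 0.

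For most of these genes the gap between replicate 3 and the other replicates was wider than that between the groups. In replicate 3 of both groups, 7 of the 8 tested genes were above replicates 1 and 2 of the same group, against 29.1% of all tested genes, and Cacna1s was as well. On the scale of log2(CPM + 0.5), Atp2a1 was higher in replicate 3 than in the mean of replicates 1 and 2 by 2.44 in siCTRL and 2.08 in siCOX7A2L. Ryr1 was higher by 1.47 and 2.15, and Stac3 by 1.65 and 2.17. Cacna1s had differences of 2.22 and 2.34. Atp2a2 was lower by -0.29 and -0.36. The median over the 8 genes was 1.03 in siCTRL and 1.34 in siCOX7A2L, with -0.010 and -0.018 for all tested genes. Myog and Myh3, the embryonic myosin, were high in the same 2 libraries, Myh3 with 21.9 and 53.1 CPM there against at most 2.98 CPM elsewhere. The 13 protein genes encoded in mitochondria took 2.78% and 1.61% of the counts in these libraries and 0.589% to 0.616% in the other 4. The part of either in the values of the 10 genes was not tested. With replicate 3 left out, 3 of the 8 genes had an unadjusted p under 0.05 (Ryr1, Atp2a1 and Atp2a2), against 13.8% of all genes in that fit, and 0 passed after adjustment (edgeR, 0.339% of all genes passed).

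**Figure D4:**
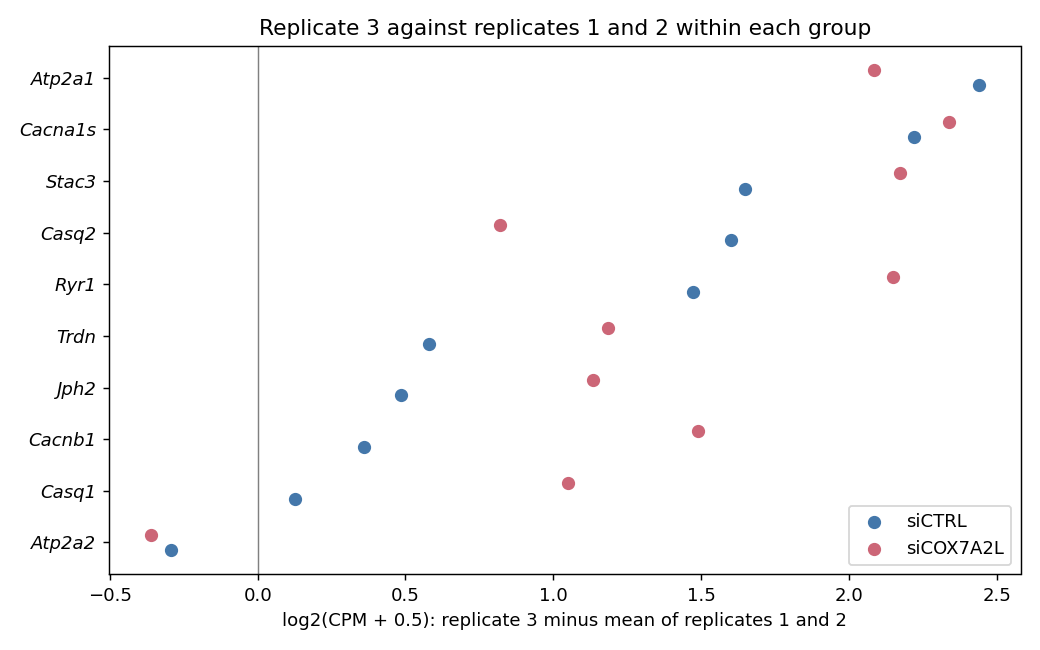
Replicate 3 against the mean of replicates 1 and 2 within each group, as a difference of log2(CPM + 0.5), for the 10 genes. All genes but Atp2a2 lie above 0 in both groups, and Atp2a1, Cacna1s, Stac3 and Ryr1 lie at 1.47 or more. Each point compares 1 library with 2 and has no test.

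The wider calcium pathway was read from 8 further lists of 98 genes, of which 96 matched a gene row and 71 were tested. None passed in the edgeR fit with the block (0 of 71), and DESeq2 with the block called 2, Bin1 and S100a1 (4.11% of genes with an adjusted p called). An unadjusted p under 0.05 was found for 13 of the 71 genes, near the share of all tested genes (17.7%). Of the 13, 10 were higher and 3 lower, where 8.74% and 8.97% of all tested genes were higher and lower at this p. Among 15 tested genes of the triad and T-tubule the median log2 fold change was 0.25 and 12 were above 0, while 51.1% of all tested genes were positive. Bin1, which shapes T-tubules, had 240.0, 234 and 243 CPM in siCTRL and 304, 317 and 467 CPM in siCOX7A2L (log2 fold change 0.57, edgeR adjusted p = 0.0788). Cacna2d1, the alpha2-delta subunit of the L-type channel, had 66.8, 62.1 and 58.1 CPM in siCTRL and 95.8, 83.8 and 77.3 CPM in siCOX7A2L (log2 fold change 0.45, edgeR adjusted p = 0.101). In both genes every siCOX7A2L library was above every siCTRL library, as in 7.96% of all tested genes. Cacna2d1, unlike most of the 10 genes, was not raised in replicate 3.

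Of the peptides that regulate SERCA pumps, Sln (sarcolipin) and Strit1 (DWORF) had 0 counts in each library, which allows up to 0.174 to 0.337 CPM depending on depth. Pln (phospholamban) had 3 counts in siCTRL replicate 3 and 0 elsewhere, and Mrln (myoregulin) had 2 to 14 counts, which per length is 0.610 to 2.70 TPM. None of the 4 could be tested, and 2 others of the list were not matched to a row. Over 10 tested genes of calcium-binding proteins of the lumen, log2 fold changes ran from -0.23 to 0.53 with a median of 0.050. Srl, sarcalumenin of muscle reticulum, was higher in each pair (log2 fold change 0.53, edgeR adjusted p = 0.17), and Hsp90b1, the chaperone GRP94, had -0.23 (0.347). Among 10 tested genes of store-operated entry and IP3 receptors the median was -0.0022. Stim1, the sensor of store filling, had 28.6, 26.4 and 30.4 CPM in siCTRL and 20.3, 22.5 and 21.9 CPM in siCOX7A2L (log2 fold change -0.40, edgeR adjusted p = 0.195). Its siCOX7A2L libraries all lay below its siCTRL libraries, as in 7.62% of all tested genes. Stim2 had -0.30 (edgeR adjusted p = 0.252).

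Genes that clear calcium from the cytosol had fold changes in both directions. Over 5 tested genes of extrusion the log2 fold changes ran from -0.25 to 0.29 with a median of -0.034, with Atp2b1, a plasma membrane pump, at -0.25 (edgeR adjusted p = 0.358) and Slc8a1, a sodium-calcium exchanger, at 0.29 (0.398), the latter negative on TPM. Over 8 genes of mitochondrial uptake they ran from -0.35 to 0.39 with a median of -0.0045, with Mcu, the uniporter pore, at -0.31 (edgeR adjusted p = 0.289) and Smdt1, its essential regulator, at 0.27 (0.361). Among 16 tested genes of calmodulin, calcineurin and NFAT the median was -0.049. S100a1, a calcium-binding protein that acts on ryanodine receptors and SERCA, had 13.7, 11.1 and 14.1 CPM in siCTRL and 16.9, 22.5 and 33.9 CPM in siCOX7A2L. Its siCOX7A2L libraries all lay above its siCTRL libraries, as in 7.96% of all tested genes. Its log2 fold change was 0.87 (standard error 0.20, edgeR adjusted p = 0.0683). Nfatc4, a transcription factor activated by calcineurin, had 0.75 (edgeR adjusted p = 0.135).

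**Figure D5:**
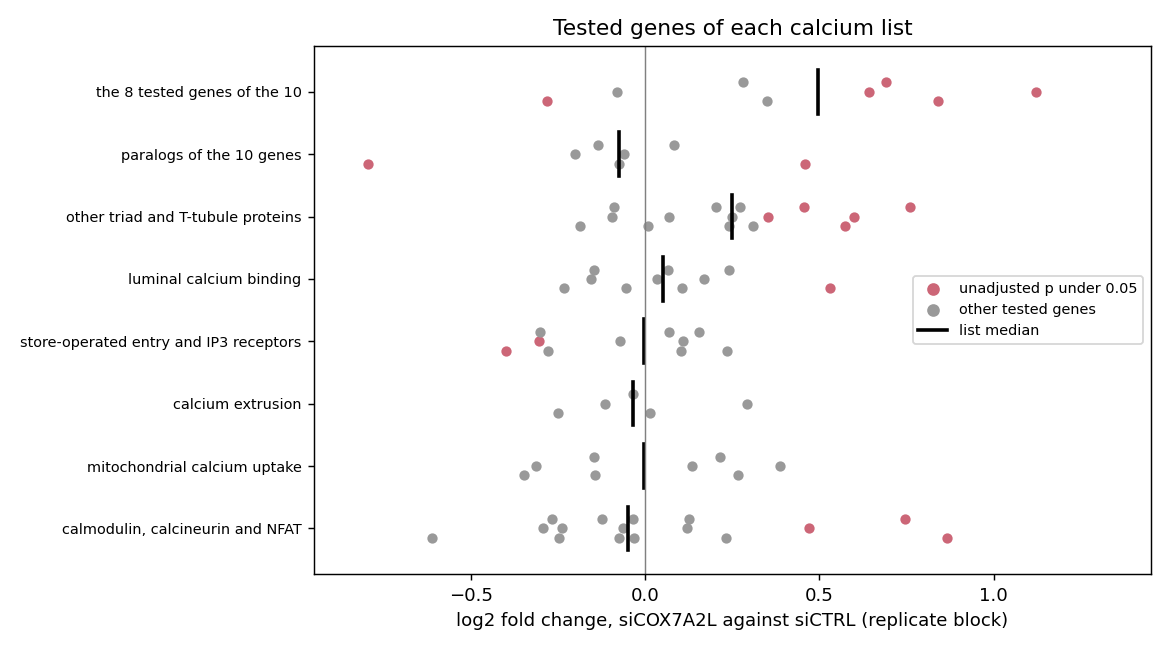
Log2 fold changes of the tested genes of each calcium list in the fit with the replicate block, with black bars at the list medians. Red points had an unadjusted p under 0.05, and none passed after adjustment over all genes. The 8 tested genes of the 10 have a median of 0.50, the triad and T-tubule list 0.25, and the medians of the other 6 lists lie between -0.075 and 0.050.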

How the data were processed

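RNA-seq of 6 C2C12 libraries was analysed, 3 per group. Salmon 0.13.1 and DESeq2 1.30.1 appear in the submitters' processing notes with Trim Galore 0.6.4 and the build mm39, without roles. The authors deposited estimated counts per gene, TPM values (per length and library), and a result table holding, per the file headers, scaled counts (a normalised signal), log2 fold changes, a test score (stat), p-values and adjusted p-values. Of annotation and counting strand nothing is given in the sources used here. The 10 genes and all lists were chosen with earlier results of these data known. Symbols were joined by gene identifier without version (97.6% of rows). Counts, foreseen as whole, were rounded, then tested in R 4.3.3 by edgeR 4.0.16 (filterByExpr, TMM, robust glmQLFit and glmQLFTest, replicate number as block, Benjamini-Hochberg over 15022 genes, threshold 0.05). In simulations of this comparison (15022 genes, 200 of them changed, 5 draws per fold size), 4.65% to 4.84% of unchanged genes had an unadjusted p under 0.05. False calls were 25.9%, 11% and 9.34% of calls at changes of 1.5, 2 and 4 times, above the nominal share, so adjusted p-values near the threshold are less certain than they read. The standard error is the fold change over the root of F. Pair values are log2 CPM with a prior count of 2. The block was set when the 10 genes were chosen. Libraries of equal number correlated, as deviations from group means, at 0.53, 0.45 and 0.67. Across numbers the values were 0.43 and 0.44 between replicates 1 and 2, and -0.60 to -0.51 between replicate 3 and the others. Deviations from a mean of 3 libraries cancel, so a gap of replicate 3 shared by both groups by itself makes replicates 1 and 2 correlate. No label says what a number shares, and replicates 1 and 2 are only narrowly paired. siCTRL replicates 1 and 2, the most alike, differed by more than counting noise (median chi-square 0.835 against 0.455). Named genes were the 10, their tested paralogs, and of each other list any called gene or else the 2 with the smallest p. Sln, Strit1, Pln, Mrln, Ryr2, Ckm, Pax7, Myf5, Rabep2, Gm17224, Dcn, Col1a1, Pdgfra and Jsrp1 were added after their values were seen. Alternatives used DESeq2 1.42.0 and limma 3.58.1, other scalings, filters, designs and pairs left out. Limits from 3 counts cover counting error only. The 95% intervals come from the quasi-likelihood fit and cover the spread between these libraries that is left after the block.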

Additional observations from a re-analysis of the deposited data

How the results depend on the processing

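With the replicate block 109 of 15022 genes passed. The count was 2 with no replicate block, 197 with a term for replicate 3, 493 with DESeq2, 1257 without the expression filter, 58 with library size scaling, 14 and 9 with limma on log2 TPM plus 0.5 and plus 0.1, and 51 to 1210 with 1 pair left out. The fewest came without replicate 3 (51), with 373 without replicate 1 and 1210 without replicate 2. Leaving out 1 library under the block removes its whole pair. Of the 10 genes, 0 passed with the block, 0 with no replicate block, and 1, always Ryr1, with DESeq2 (log2 fold change 0.83, adjusted p = 0.00499), without the filter (0.83, edgeR adjusted p = 1.7e-05) and without replicate 1 (0.79) or replicate 2 (1.09), with 0 to 1 over the pairs left out. Ryr1 was between 0.61 and 1.09 there. Its passes without the filter and without replicate 1 or 2 cannot be read as stronger evidence than the main fit, since the p-values are on another scale, as described above. Of the 71 other pathway genes 2 passed with DESeq2, 6 without the filter and 0 to 5 with a pair left out (2 without replicate 1, 5 without replicate 2, 0 without replicate 3). Signs turned, with no call in either state, for Cacnb1 (-0.054 without replicate 3, up to 0.55 with another pair left out), Casq2 (0.0026 with DESeq2, 0.17 on TPM plus 0.1, 0.20 without replicate 2, and from -0.72 to 0.39, the latter without replicate 3, over the pairs left out), Cacnb3 (0.018 without replicate 3, and from -0.28 to 0.028, the latter without replicate 1), Jph1 (-0.10 and -0.11 on TPM, -0.021 without replicate 3, up to 0.15 without replicate 2), Slc8a1 (-0.067 and -0.065 on TPM) and Myod1 (-0.012 with library size scaling, -0.24 on either TPM scale, -0.084 without replicate 3, up to 0.12 without replicate 1). The same held for Col1a1 (0.011 with no replicate block, -0.21 to 0.16 over the pairs left out, the latter without replicate 1), Pdgfra (-0.078 and -0.11 on TPM, -0.069 to 0.28 over the pairs left out, the former without replicate 2) and Rabep2 (-0.035 and -0.036 on TPM). Dcn lost its call with no replicate block (adjusted p = 0.822), with library size scaling (0.0622), on TPM (0.197 and 0.235) and without replicate 3 (0.209), by edgeR or, on TPM, limma. The difference in Casq1 share, 6.44 points, was -0.837 points without replicate 3 and up to 14.9 points with another pair left out. The shares of Ryr1 in Ryr1 and Ryr3 and of Jph2 in Jph2 and Jph1, the pathway count and the values of Dcn, Col1a1, Pdgfra and Rabep2 were added after seeing the data. The cause of these shifts was not tested. The median log2 fold change of all genes was -0.21 on TPM plus 0.5 and -0.24 on TPM plus 0.1, so a negative sign there is not particular to a gene. The other fold changes and shares recomputed kept their direction and side of the threshold, apart from single genes that passed under some alternatives (Bin1, S100a1, Cacna2d1, Cacnb2, Nfatc4, Myog and Myh3). Jsrp1, a further gene of the triad and T-tubule list, also passed without the filter and without replicate 2. In the main fit its log2 fold change was 0.76 (edgeR adjusted p = 0.101).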

Other observations

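The deposited counts and TPM of a gene differ by the length that was assigned to its transcripts, and here their ratio was set against the median ratio of the library. Over all tested genes the highest of the 6 libraries was a median of 1.18 times the lowest. Atp2a2 and Jph2 were steadier than that, at 1.03 times each. Atp2a1 reached 1.55 times, more than 81.9% of tested genes, with its lowest ratios, 1.09 and 1.02, in replicate 3 of siCTRL and siCOX7A2L and 1.35 to 1.59 in the other 4 libraries. Ryr1 likewise had its lowest ratios, 4.19 and 3.90, in the 2 replicate 3 libraries, against 4.52 to 5.43 elsewhere, a range of 1.39 times that exceeded 72.3% of tested genes. Cacnb1 had its highest ratios there, 0.927 and 1.05, against 0.772 to 0.881 elsewhere, and Stac3 varied by 1.62 times with no such order. Casq2 (4.63 times) and Trdn (3.28 times) varied more, exceeding 99.4% and 98.4% of tested genes, on 4 to 44 and 8 to 27 counts. Transcript counts were not analysed here, and no test was made.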
